A study of Mus musculus with 9 samples.

Results

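The 41 genes described here are those with which the liver senses and clears foreign compounds: 25 cytochromes P450 of families 1 to 3, the monooxygenases Fmo1 and Fmo5, epoxide hydrolase Ephx1, 6 UDP-glucuronosyltransferases (Ugt), the sulfotransferases Sult1a1 and Sult1d1, the methyltransferases Tpmt and Nnmt, and the receptors Nr1i2, Nr1i3 and Ahr. They were taken by symbol from a list, which was chosen with earlier results of these data known. All 41 were found among the 41388 genes of each deposited table, Cyp2c44 under its other name Cyp2c23. Cyp3a16 stayed below the filter on low counts and was not tested, with 0 to 7 reads in each library, so tests cover 40 members.

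Liver RNA came from 3 genotypes of male C57BL/6J congenic mice. The controls carried floxed Mttp alleles (Mttp fl/fl), the MttpLKO mice had lost Mttp in the liver, and the DKO mice (Fabp1 Mttp DKO) had in addition a germline deletion of Fabp1. Mttp encodes the microsomal triglyceride transfer protein, which loads lipid onto nascent lipoproteins, and Fabp1 the liver fatty acid binding protein. All mice, controls included, had received the liver carcinogen diethylnitrosamine (DEN) by intraperitoneal injection, 25 mg/kg at 14 days of age, were fed chow, and gave liver at 6 months. The design therefore holds no mice without DEN, no Fabp1 deletion alone and no separate Cre control group. The driver of the Mttp deletion is not given in the sources used here, nor whether the floxed controls carried Cre. Each library was a pool of RNA from 3 mice, with 3 pools per genotype, so single mice were not measured and the spread between pools is that between averages. The labels describe the pools as separate. In whole liver, fewer cells of a type and less RNA per cell cannot be told apart.

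Oxidation by P450s, flavin monooxygenases and epoxide hydrolase makes a lipid-soluble compound reactive or more polar, and glucuronidation, sulfation or methylation then prepares it for export. Ahr, Nr1i3 and Nr1i2 switch these genes on, with overlapping targets. Ahr binds planar aromatic ligands, and Nr1i3 (CAR) and Nr1i2 (PXR) respond to a wide range of drugs and steroids. Most of the P450s are made in hepatocytes, many of them around the central vein, and some differ between males and females. DEN itself becomes mutagenic after oxidation by P450s.

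Total counts ran from 23268389 to 27918197 per library. Mttp stood at 69.4 to 181 CPM (counts scaled to sequencing depth, with TMM-adjusted library sizes) in controls, 6.14 to 9.78 in MttpLKO and 3.24 to 5.79 in DKO, and Fabp1 at 6060 to 6845, 3379 to 4984 and 50.3 to 78.0 CPM, so both deletions showed in every library that carries them. The third MttpLKO pool stood apart. Its summed level of 5 B and plasma cell markers was 328 CPM against 11.5 to 20.9 in the other 8 libraries, that of 5 proliferation markers 23.6 against 5.33 to 11.7, and that of 6 stellate cell and fibroblast markers 311 against 152 to 212. The 7 pericentral hepatocyte markers found summed to 7359 CPM there and to 12735 and 13514 in the other MttpLKO pools. Most of this was Cyp2e1, itself a P450 of family 2, at 5223 against 8780 and 9537 CPM. Glul stood at 947 against 1912 and 1924 CPM. Oat stood at 938 against 1585 and 1527 CPM, within the controls' 762 to 1045. No marker of these lists was at 0 in all libraries. The 6 hepatocyte markers were present throughout, with sums from 57282 CPM in the first DKO pool to 98164 in the third MttpLKO pool. Most of each sum was Alb, at 34963 and 69252 CPM in these 2 pools.

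Of the 40 tested members, 1 differed between MttpLKO and control and 2 between DKO and MttpLKO, and none was called between DKO and control. Tpmt was higher in MttpLKO than in control, and Tpmt and Cyp2c68 were lower in DKO than in MttpLKO. A call means an adjusted p under 0.05 in edgeR's quasi-likelihood test, adjusted over all 14741 tested genes, and the background share of genes called was 0.346%, 0.4% and 0.332% in the order of the comparisons. By direction, 0.224% were higher and 0.122% lower in the first, 0.258% and 0.142% in the second, and 0.237% and 0.095% in the third. At an unadjusted p under 0.05 stood 6, 12 and 7 members, against 6.97%, 9.1% and 11.2% of all tested genes. For DKO against control DESeq2 called 1 member, Cyp3a59, and limma-voom 0. The comparisons share libraries: MttpLKO enters the first and the second, and the controls enter the first and the last.

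**Figure D1:**
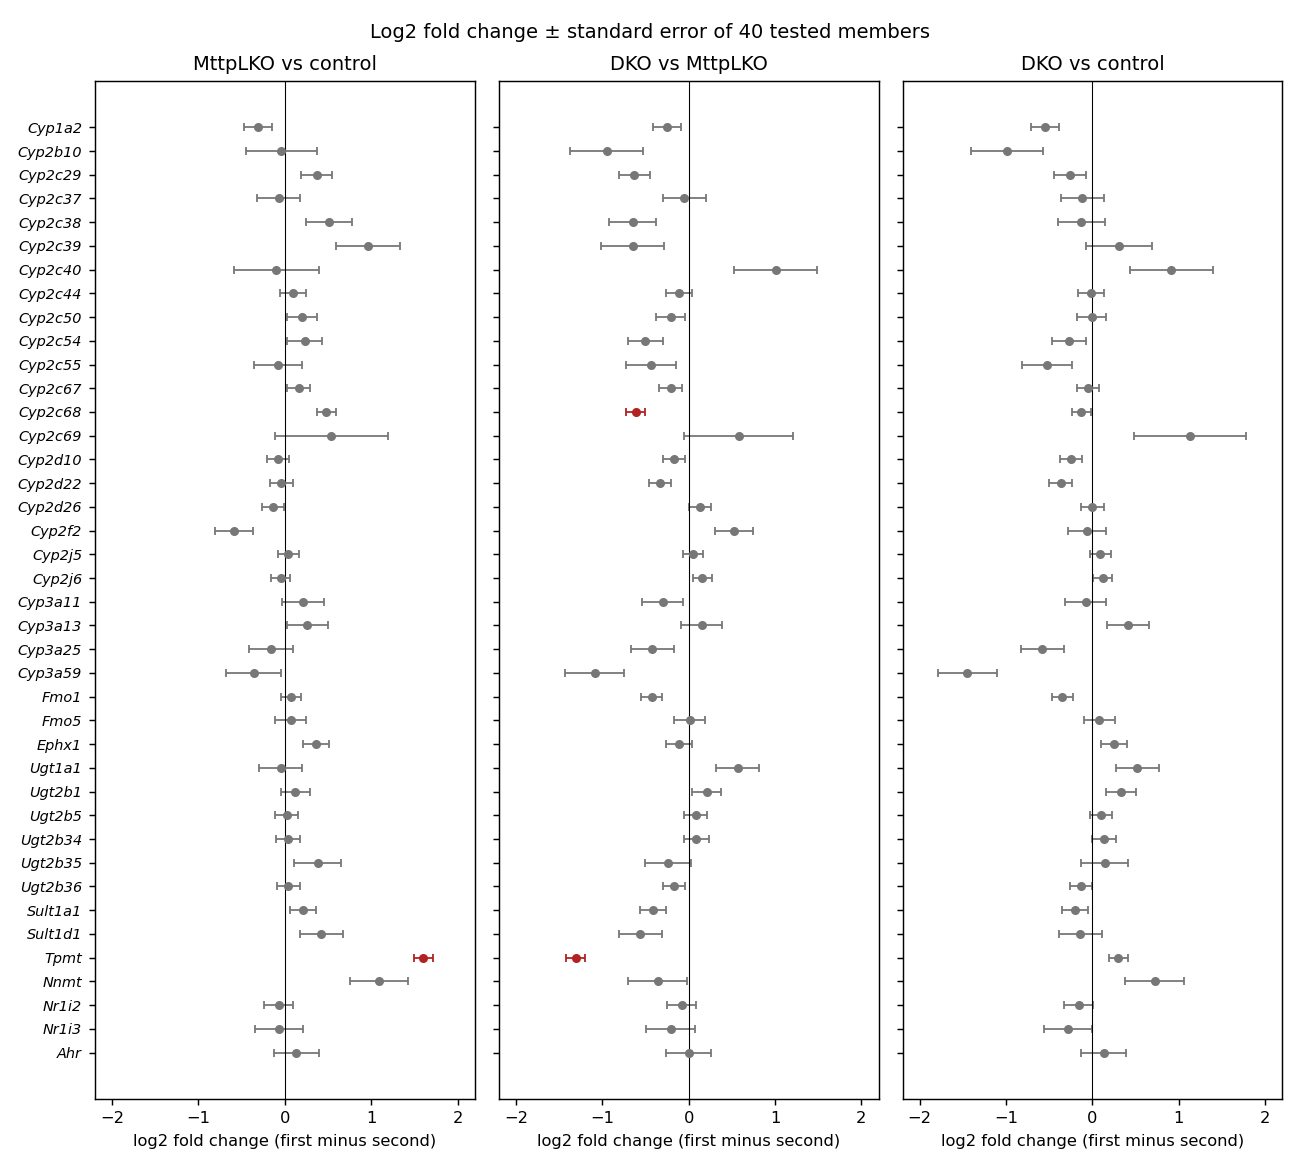
Log2 fold change (x axis) with its standard error for each of the 40 tested members (y axis), 1 panel per comparison, with called members in red. Tpmt is called in the MttpLKO against control panel at 1.60 and in the DKO against MttpLKO panel at -1.31, where Cyp2c68 is called at -0.61; all other points are grey.

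The regulatory DNA of the 2 called members, Tpmt and Cyp2c68, and of Cyp3a59, which was not called but had the largest difference between DKO and control, is shown first. Beside Cyp2c68 and Cyp3a59 stands the related gene whose 250-base window was most like theirs among those compared, with gaps counted as differences. Sequences are the 250 bases before the RefSeq start of transcription (GRCm38.p6), 5′ to 3′ on the gene's strand. Capitals mark matches, on either strand, to GCGTG (the core bound by Ahr with its partner Arnt), AGGTCA and AGTTCA (half-sites of nuclear receptors), CAAAGTCCA (a site of the liver factor HNF4) or TATAAA (the TATA box).
Tpmt, chr13:47043218-47043467, minus strand: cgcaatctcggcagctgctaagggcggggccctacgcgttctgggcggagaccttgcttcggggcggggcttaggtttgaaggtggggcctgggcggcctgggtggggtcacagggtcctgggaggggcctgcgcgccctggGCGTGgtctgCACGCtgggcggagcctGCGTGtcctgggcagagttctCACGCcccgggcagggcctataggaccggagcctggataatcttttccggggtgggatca
Cyp2c68, chr19:39741102-39741351, minus strand: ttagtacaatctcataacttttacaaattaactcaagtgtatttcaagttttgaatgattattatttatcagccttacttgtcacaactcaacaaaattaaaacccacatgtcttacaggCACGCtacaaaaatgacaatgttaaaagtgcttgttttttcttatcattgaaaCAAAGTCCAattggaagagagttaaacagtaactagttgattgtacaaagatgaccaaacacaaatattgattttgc
Cyp2c69, chr19:39886770-39887019, minus strand: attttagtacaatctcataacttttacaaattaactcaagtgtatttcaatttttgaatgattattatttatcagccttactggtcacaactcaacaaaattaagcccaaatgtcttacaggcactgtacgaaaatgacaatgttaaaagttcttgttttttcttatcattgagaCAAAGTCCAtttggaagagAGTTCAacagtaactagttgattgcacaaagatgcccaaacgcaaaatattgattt
Cyp3a59, chr5:146079008-146079257, plus strand: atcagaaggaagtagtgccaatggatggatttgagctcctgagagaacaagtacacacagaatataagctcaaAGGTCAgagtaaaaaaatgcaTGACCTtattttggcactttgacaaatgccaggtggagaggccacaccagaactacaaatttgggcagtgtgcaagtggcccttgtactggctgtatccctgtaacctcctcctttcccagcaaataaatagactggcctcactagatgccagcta
Cyp3a25, chr5:146009619-146009868, minus strand: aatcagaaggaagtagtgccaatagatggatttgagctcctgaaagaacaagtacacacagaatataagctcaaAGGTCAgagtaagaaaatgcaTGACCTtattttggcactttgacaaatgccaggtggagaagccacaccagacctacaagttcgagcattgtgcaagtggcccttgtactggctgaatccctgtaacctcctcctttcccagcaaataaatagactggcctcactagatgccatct

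The Tpmt promoter was 69.2% G and C and held GCGTG 4 times, 2 on each strand. It was the 1 promoter of 37, from the 35 members with an entry, above 60% G and C, where 27% of all 32851 promoters stood. The median was 44% for the members' promoters and 52.4% for all. The RefSeq start of Tpmt lies inside the longer span that the deposited tables give for the gene. On the other strand Kdm1b starts at 47043499, just past the printed window, so the window lies before both genes. GCGTG occurred in 4 of the members' promoters (10.8%, against 28.2% of all), AGGTCA in 11 (29.7% against 14%), AGTTCA in 7 (18.9% against 11.8%), CAAAGTCCA in 6 (16.2% against 0.384%) and TATAAA in 12 (32.4% against 12.4%). No 2 matches overlap in the printed windows. Members of 1 gene cluster share sequence, so these shares are not independent. With gap positions counted as differences, the windows of Cyp2c68 and Cyp2c69 were 91.3% identical when aligned. The share was 73.5% for Cyp2c68 and Cyp2c40 and 63.1% for Cyp2c68 and Cyp2c67, alignments with 66 and 96 gap positions against 8. Outside gaps, Cyp2c69 had 14 mismatches beside 232 identical bases, Cyp2c40 9 beside 208 and Cyp2c67 14 beside 188. All 4 held CAAAGTCCA. It began 77 bases before the start in Cyp2c68, 75 in Cyp2c69, 45 in Cyp2c40 and 125 in Cyp2c67, so the windows are offset. By transcript, more 50-base words of Cyp2c68 were found in Cyp2c40 (35.6%) and Cyp2c67 (22.4%) than in Cyp2c69 (19.6%). The windows of Cyp3a59 and Cyp3a25 were 94.8% identical, and both held AGGTCA on each strand. A match is a match of letters and no evidence of binding.

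The receptors did not pass the test in any comparison. Nr1i3, the constitutive androstane receptor, stood at 333, 422 and 394 CPM in controls, 444, 453 and 194 in MttpLKO and 235, 377 and 333 in DKO. The third MttpLKO pool was the lowest of the 9, and the groups overlapped. Its log2 fold changes were -0.07 ± 0.28 (SE), -0.21 ± 0.28 and -0.28 ± 0.28 for MttpLKO against control, DKO against MttpLKO and DKO against control. Nr1i3 overlaps the gene Tomm40l, and 58.1% of the 50-base words of its transcripts also occur in Tomm40l, so how reads were divided between them is uncertain.

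Nr1i2, the pregnane X receptor, stood at 131, 164 and 179 CPM in controls, 148, 183 and 119 in MttpLKO and 124, 138 and 163 in DKO. Ahr, the aryl hydrocarbon receptor, stood at 26.5, 37.3 and 35.2 CPM in controls, 38.2, 44.3 and 25.6 in MttpLKO and 44.7, 22.5 and 40.8 in DKO. Both were spread as widely within a genotype as between genotypes, with log2 fold changes between -0.16 and 0.13. Per length of transcript, over all libraries, the mean level was 79.8 RPKM (deposited reads per kilobase of gene, scaled to sequencing depth) for Nr1i3, 58.6 for Nr1i2 and 5.68 for Ahr.

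**Figure D2:**
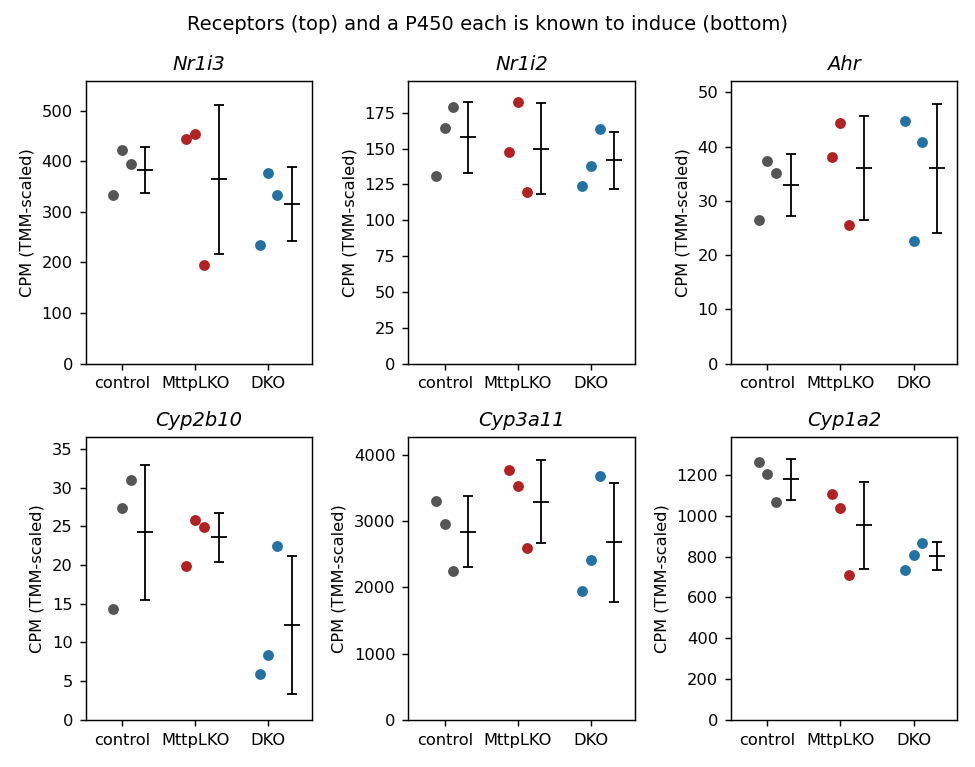
CPM (y axis) in each pooled library by genotype (x axis) for 3 receptors and, below each, a P450 it is known to induce; points are libraries and bars the mean ± SD of 3 pools. The lowest point of Nr1i3 is the third MttpLKO pool at 194 CPM, and the 3 DKO pools of Cyp1a2, at 732 to 867 CPM, lie below the 3 control pools at 1067 to 1261.

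Each receptor's usual readout was measured too. Cyp2b10, the classical target of Nr1i3, stood at 14.3, 27.4 and 31.0 CPM in controls, 19.9, 25.8 and 24.9 in MttpLKO and 5.95, 8.43 and 22.4 in DKO. DKO pools 1 and 2 were the lowest of the 9 and the third lay among the others. The log2 fold change was -0.95 ± 0.42 for DKO against MttpLKO (edgeR adjusted p = 0.539) and -0.99 ± 0.42 for DKO against control (edgeR adjusted p = 0.416). Cyp3a11, the main target of Nr1i2 and the most abundant member per length at 1243 RPKM, stood at 3299, 2956 and 2247 CPM in controls, 3766, 3518 and 2584 in MttpLKO and 1945, 2404 and 3677 in DKO. Its DKO pools covered nearly the whole range, and no log2 fold change was larger than 0.30 in size. Cyp1a2, a target of Ahr that also activates aromatic amines, stood at 1261, 1205 and 1067 CPM in controls, 1108, 1040 and 711 in MttpLKO and 732, 806 and 867 in DKO. The 3 DKO pools lay below the 3 controls, at a log2 fold change of -0.55 ± 0.16 that was not called (edgeR adjusted p = 0.242), while the MttpLKO pools overlapped both.

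Among the 24 tested P450s, 0 were called between MttpLKO and control, 1 between DKO and MttpLKO (Cyp2c68, lower) and 0 between DKO and control. The log2 fold changes were split 12 above and 12 below 0 in the first comparison, 7 and 17 in the second and 6 and 18 in the third, with medians of 0.00, -0.23 and -0.10. Over all tested genes 52.3%, 46.9% and 49.6% were above 0 and 47.7%, 53.1% and 50.4% below, with medians of 0.01, -0.02 and 0.00. The 25 P450s together gave 12354 ± 1210 CPM (SD, n = 3 pools) in controls, 12435 ± 1972 in MttpLKO and 11089 ± 1561 in DKO, and the pools of the 3 genotypes overlapped.

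The 12 Cyp2c genes, which oxidize drugs and make epoxides from arachidonic acid, lie together on chromosome 19 with the exception of Cyp2c44 farther along it. In MttpLKO against control 9 of 12 were above 0, with a median of 0.21, and in DKO against MttpLKO 10 of 12 were below 0, with a median of -0.33; in DKO against control 9 were below 0, with a median of -0.08. Summed over the 12, the controls had 3058 ± 213 CPM (SD, n = 3 pools), MttpLKO 3600 ± 670 and DKO 2774 ± 365. The third MttpLKO pool, at 2895, lay among the controls and DKO.

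Cyp2c68 (ENSMUSG00000074882, chr19:39688834-39741054, minus strand) was the Cyp2c gene called. It stood at 64.2, 68.7 and 67.3 CPM in controls, 107, 85.6 and 87.3 in MttpLKO and 58.4, 64.4 and 60.1 in DKO. Every MttpLKO pool lay above every control and every DKO pool, while controls and DKO overlapped. DKO was 1.53-fold lower than MttpLKO, at a log2 fold change of -0.61 ± 0.11 (edgeR adjusted p = 0.0412), and MttpLKO against control gave 0.48 ± 0.11 without a call (edgeR adjusted p = 0.14). The call was lost in 10 of 17 alternatives, among them 8 of the 9 in which 1 library was left out, where the adjusted p reached 0.169. Of the 50-base words of its transcripts 43.3% also occur in Cyp2c40, Cyp2c67 or Cyp2c69, so reads may be split between copies.

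The levels of those copies were read too. Cyp2c67 stood at 112 ± 20.01 CPM in controls (SD, n = 3 pools), 126 ± 7.39 in MttpLKO and 108 ± 1.82 in DKO. Its log2 fold changes had the signs of those of Cyp2c68 but were smaller. They were 0.16 ± 0.13 for MttpLKO against control and -0.21 ± 0.13 for DKO against MttpLKO, where the pools did not overlap. Cyp2c40 and Cyp2c69 stood at 0.339 to 3.46 CPM, and their log2 fold changes in DKO against MttpLKO were 1.01 ± 0.48 and 0.58 ± 0.63. None of the 3 was called. Cyp2c68 was the only called gene of the 98 tested within 5 Mb of it in DKO against MttpLKO.

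**Figure D3:**
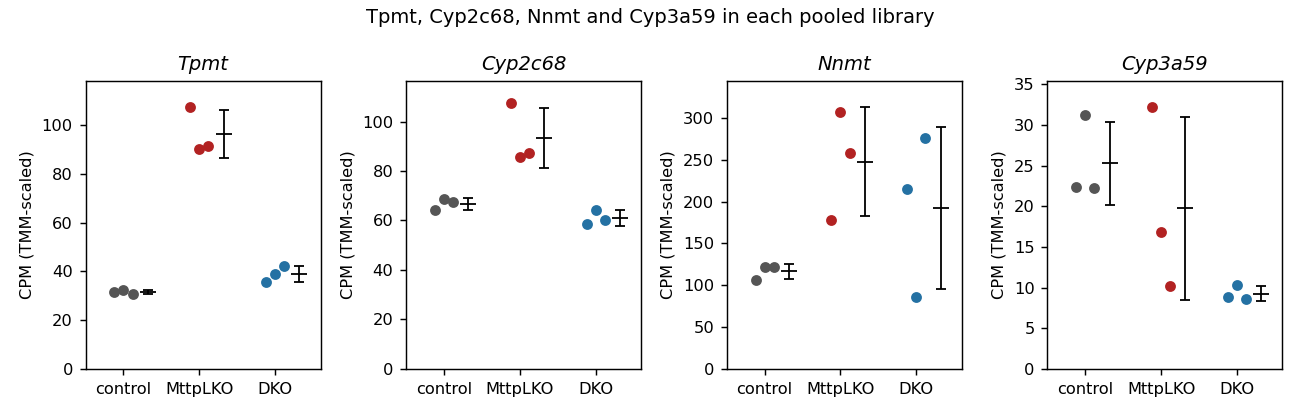
CPM (y axis, from 0) in each pooled library by genotype (x axis) for Tpmt, Cyp2c68, Nnmt and Cyp3a59; points are libraries and bars the mean ± SD of 3 pools. The MttpLKO pools of Tpmt, at 90.2 to 108 CPM, and of Cyp2c68, at 85.6 to 107, lie above all other pools, while Nnmt in DKO spans 86.4 to 276 CPM.

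Cyp2c29, the most abundant Cyp2c gene per length at 392 RPKM, stood at 1179, 1264 and 1034 CPM in controls, 1813, 1571 and 1094 in MttpLKO and 880, 1044 and 975 in DKO. Its DKO pools all lay below the MttpLKO pools, at -0.63 ± 0.18 (edgeR adjusted p = 0.258). Cyp2c39, at the other end of the levels, stood at 0.525, 1.02 and 1.19 CPM in controls, 2.22, 2.09 and 1.04 in MttpLKO and 1.00, 1.11 and 1.30 in DKO. MttpLKO pools 1 and 2 were the highest and the third lay with the controls (log2 fold change 0.96 ± 0.37, edgeR adjusted p = 0.625). The other Cyp2c genes not named so far, Cyp2c37, Cyp2c38, Cyp2c44, Cyp2c50, Cyp2c54 and Cyp2c55, had log2 fold changes from -0.65 to 0.51 with no call.

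The Cyp3a genes, which metabolize steroids and a large part of all drugs, lie in a cluster on chromosome 5, apart from Cyp3a13. Cyp3a59 (ENSMUSG00000061292, chr5:146079258-146113285, plus strand) had the largest difference between DKO and control among the members. It stood at 22.4, 31.2 and 22.3 CPM in controls, 32.2, 16.8 and 10.2 in MttpLKO and 8.84, 10.4 and 8.60 in DKO. Every DKO pool lay below every control, and the third MttpLKO pool lay at the level of DKO. The log2 fold change of -1.45 ± 0.34, a 2.73-fold lower level, was not called (edgeR adjusted p = 0.133), nor was that of -1.09 ± 0.34 against MttpLKO (edgeR adjusted p = 0.316). Without the third MttpLKO pool both were called.

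Cyp3a25, whose promoter is nearly that of Cyp3a59 and which shares 25% of its 50-base words with it, stood at 369, 529 and 425 CPM in controls, 525, 423 and 239 in MttpLKO and 248, 335 and 305 in DKO. Its DKO pools also lay below every control, at -0.58 ± 0.25 (edgeR adjusted p = 0.422). Cyp3a13 went no further than 0.41 in log2 fold change. Neither was called.

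Cyp2f2, which is made around the portal vein and oxidizes naphthalene, stood at 1933, 1297 and 1091 CPM in controls, 1032, 760 and 1082 in MttpLKO and 1097, 1486 and 1557 in DKO. The MttpLKO pools lay below both other genotypes, with log2 fold changes of -0.59 ± 0.22 against control (edgeR adjusted p = 0.613) and, for DKO against MttpLKO, 0.53 ± 0.22 (edgeR adjusted p = 0.513). The 6 periportal markers gave sums of 5598 to 6759 CPM in controls, 6561 to 8255 in MttpLKO and 5235 to 7082 in DKO. Most of each sum was Pck1, with means of 3687, 4666 and 3883 CPM. The means of Sds, Gls2, Ass1 and Hsd17b13 were also higher in MttpLKO than in control. That of Hal was lower, at 283 against 366 CPM. The part of these markers in the Cyp2f2 levels was not tested.

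Cyp2d22 stood at 461, 492 and 475 CPM in controls, 515, 483 and 389 in MttpLKO and 372, 406 and 328 in DKO. The DKO pools lay below the controls (log2 fold change -0.37 ± 0.13, edgeR adjusted p = 0.333). Cyp2d26 and Cyp2d10, the second and the fourth most abundant members per length at 753 and 613 RPKM, had log2 fold changes between -0.25 and 0.13. Reads of Cyp2d10 are uncertain, as 40.5% of its 50-base words occur in other genes. Cyp2j5 and Cyp2j6, epoxygenases of arachidonic acid, had log2 fold changes between -0.05 and 0.16.

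Fmo1, a monooxygenase of nitrogen- and sulfur-containing drugs, stood at 223, 276 and 286 CPM in controls, 268, 304 and 253 in MttpLKO and 204, 196 and 214 in DKO. All DKO pools were below all 6 others, by -0.43 ± 0.12 against MttpLKO (edgeR adjusted p = 0.278) and -0.35 ± 0.12 against control (edgeR adjusted p = 0.325). Fmo5 had log2 fold changes of 0.01 to 0.08. Ephx1, the microsomal epoxide hydrolase, stood at 479, 643 and 590 CPM in controls, 851, 712 and 627 in MttpLKO and 610, 740 and 680 in DKO, with overlapping groups and a log2 fold change of 0.36 ± 0.15 for MttpLKO against control (edgeR adjusted p = 0.674).

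None of the 6 glucuronosyltransferases was called. Ugt1a1, which conjugates bilirubin, stood at 80.3, 59.9 and 58.1 CPM in controls, 85.3, 66.0 and 40.7 in MttpLKO and 86.6, 78.2 and 120 in DKO. DKO was the highest on average, with overlap, at log2 0.57 ± 0.25 against MttpLKO (edgeR adjusted p = 0.533). Of its 50-base words 80.2% are shared within the Ugt1a locus, whose genes use common last exons, and how reads there were assigned is uncertain. The 5 Ugt2b members had log2 fold changes from -0.24 to 0.38 over the 3 comparisons, and Ugt2b5 and Ugt2b36 stood at similar levels per length (263 and 227 RPKM).

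The sulfotransferases Sult1a1 and Sult1d1 were above control in MttpLKO (log2 0.21 ± 0.15 and 0.42 ± 0.25) and below MttpLKO in DKO (-0.41 ± 0.15 and -0.56 ± 0.25), with no call. The third DKO pool lay above the other DKO pools for both, at 362 against 258 and 270 CPM for Sult1a1 and at 65.5 against 35.1 and 35.5 CPM for Sult1d1.

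Tpmt (ENSMUSG00000021376, chr13:47025170-47044737, minus strand), which methylates and so inactivates thiopurine drugs, was the member with the clearest change. It stood at 31.7, 32.6 and 30.9 CPM in controls, 108, 90.2 and 91.5 in MttpLKO and 35.7, 39.0 and 42.2 in DKO. Per length this was 16.6, 49.7 and 20.5 RPKM on average. The MttpLKO pools lay far above all others, and the DKO pools lay a little above the controls without overlap. MttpLKO was 3.04-fold above control (log2 1.60 ± 0.11, edgeR adjusted p = 3.69e-05), and DKO was 2.47-fold below MttpLKO (log2 -1.31 ± 0.11, edgeR adjusted p = 0.000175). Both calls held in all 17 alternatives. DKO against control gave 0.30 ± 0.11 (edgeR adjusted p = 0.336).

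The genes around Tpmt were examined in the same way. Of 51 tested genes within 5 Mb, Tpmt was the 1 called in the first and in the second comparison. Kdm1b, a histone demethylase gene that starts on the other strand within the span of Tpmt, had log2 fold changes of 0.20 ± 0.19 and -0.05 ± 0.19, and Nhlrc1, on the other side, 0.62 ± 0.26 (edgeR adjusted p = 0.655) and -0.48 ± 0.26 (edgeR adjusted p = 0.624). Of the 50-base words of Tpmt 22.3% also occur in Gm18807, which was not analysed here.

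**Figure D4:**
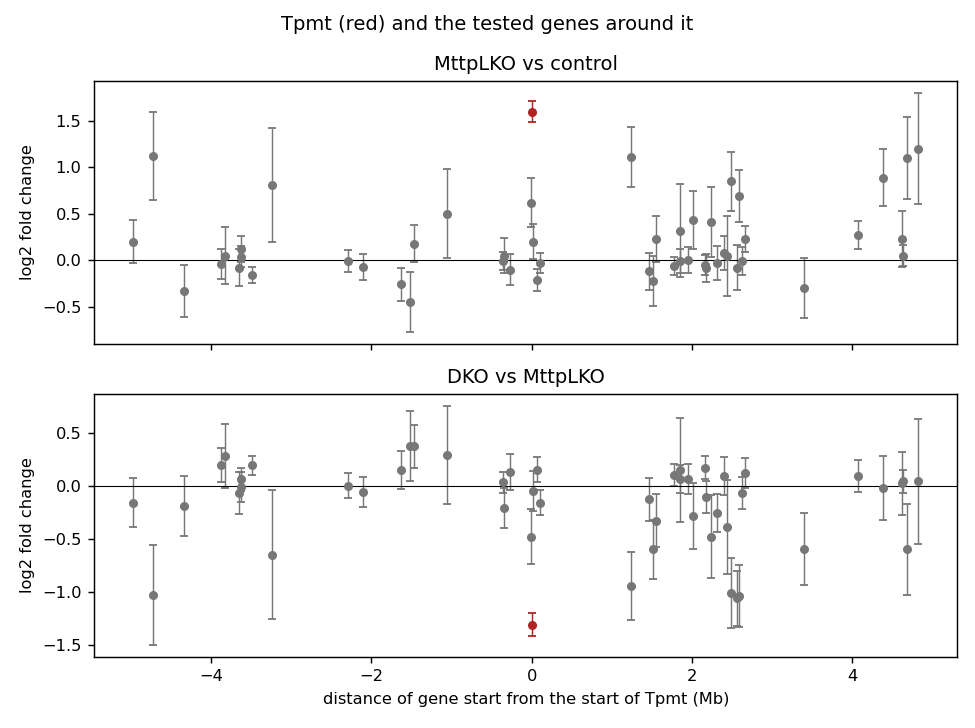
Log2 fold change with its standard error (y axis) of the 51 tested genes within 5 Mb of Tpmt against the distance of their starts from that of Tpmt in Mb (x axis), for 2 comparisons; Tpmt is red. Tpmt stands at 1.60 in the upper panel and at -1.31 in the lower, and no other gene of the window is called.

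Nnmt, which methylates nicotinamide, stood at 106, 121 and 122 CPM in controls, 178, 307 and 258 in MttpLKO and 214, 86.4 and 276 in DKO. Every MttpLKO pool lay above every control, but the spread among MttpLKO and DKO pools was wide, and 1 DKO pool lay below all controls. The 2.13-fold higher mean in MttpLKO (log2 1.09 ± 0.34) was not called by edgeR (adjusted p = 0.404).

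Single pools stood low for many members at once. The third MttpLKO pool was the lowest of the 3 MttpLKO pools for 32 of 40 members, against 36.4% of all tested genes, and the lowest of all 9 for 13. The first DKO pool was the lowest of its genotype for 25 of 40, against 28.6% of all tested genes. The median coefficient of variation of the members was 10.9% in controls, 20.04% in MttpLKO and 14.1% in DKO, and that of all tested genes was 10.2%, 14.7% and 15.9%. The third MttpLKO pool is the one with high B and plasma cell markers and a low pericentral sum, most of it the P450 Cyp2e1. The first DKO pool is the one with the lowest hepatocyte marker sum. In that DKO pool Alb, Apoa1 and Ttr were the lowest of all 9 libraries. Fga, Cps1 and Serpina1a were not, at 2992, 1643 and 1652 CPM against control means of 2652, 1674 and 1680. The part of these marker levels in the members' levels was not tested. Without the third MttpLKO pool the members called in DKO against MttpLKO were 4 in place of 2 (Cyp2c29, Cyp2c68, Cyp3a59 and Tpmt), in DKO against control 1 (Cyp3a59) in place of 0, and in MttpLKO against control 1 as before.

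**Figure D5:**
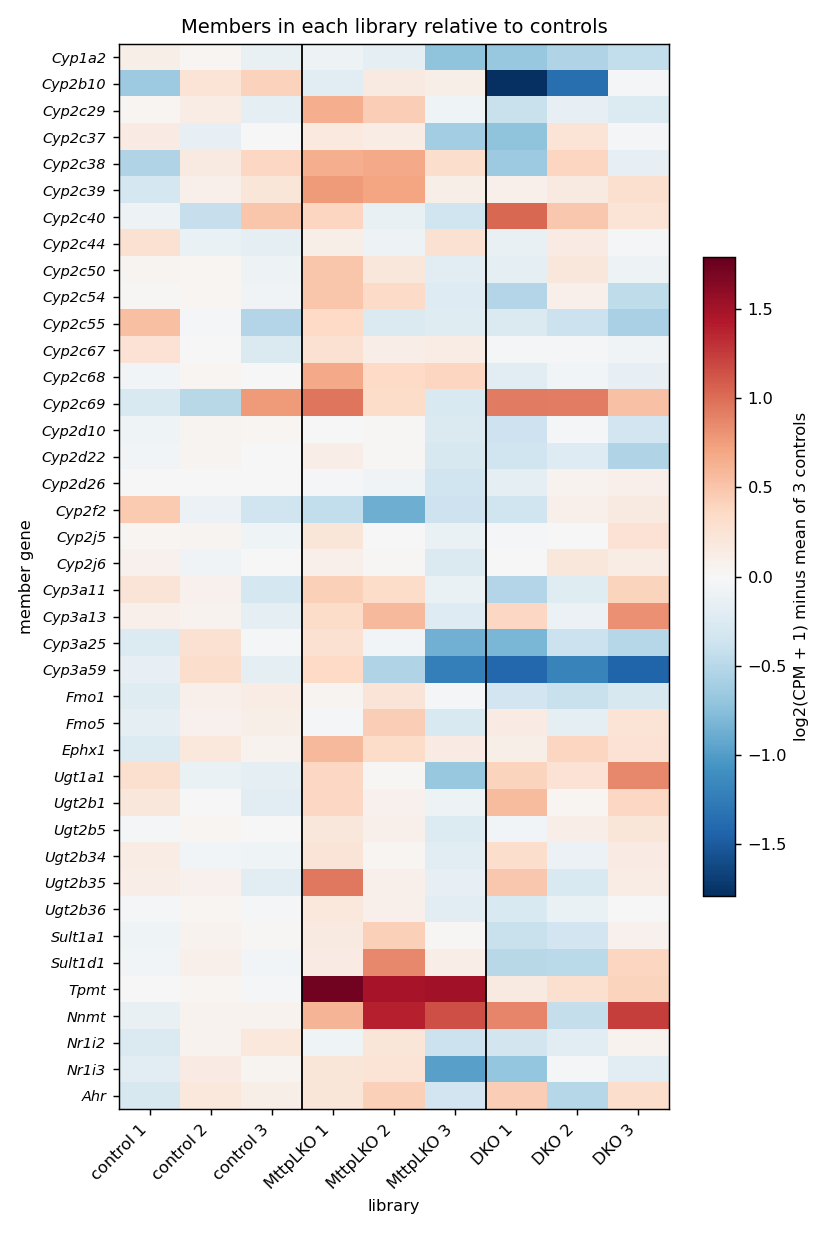
log2(CPM + 1) of each tested member (rows) in each of the 9 pooled libraries (columns) minus the mean of the 3 controls, from blue (lower) to red (higher). Tpmt is dark red in all 3 MttpLKO columns, and the third MttpLKO column is blue for many P450s for which the other 2 are pale or red.

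The 3 pools of a genotype did not overlap those of the other for 6 of 40 members (15%) in each comparison, against 14.3%, 11.5% and 18.1% of all tested genes. In MttpLKO against control 4 of these were higher and 2 lower, where 7.27% and 6.99% of all tested genes were. In DKO against MttpLKO 1 was higher and 5 lower, where 5.67% and 5.83% of all genes were. In DKO against control 1 was higher and 5 lower, where 8.95% and 9.18% of all genes were. Over all 40 members the median log2 fold changes were 0.07, -0.21 and -0.06.

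The rest of the pathway was read from lists of 164 symbols, of which 162 were found. Of 126 tested genes that are no members, 0 rose and 1 fell in MttpLKO against control, 2 rose and 2 fell in DKO against MttpLKO, and 0 rose and 1 fell in DKO against control, where 0.346%, 0.4% and 0.332% of all tested genes were called in either direction. At an unadjusted p under 0.05 stood 21 (16.7%), 35 (27.8%) and 33 (26.2%) of the 126, against 6.97%, 9.1% and 11.2% of all tested genes. The lists were chosen with earlier results known, and no test was made of these shares.

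In MttpLKO, Cyp2d40 fell from 71.6 ± 2.77 to 46.0 ± 4.08 CPM (SD, n = 3 pools; log2 -0.64 ± 0.10, edgeR adjusted p = 0.0323). It was the 1 called of 20 tested P450s of families 1 to 3 outside the members. Of the 150 tested genes within 5 Mb of it, no other was called in that comparison. In DKO against MttpLKO 1 other was, the nearby Cyp2d41-ps (log2 1.90 ± 0.24, edgeR adjusted p = 0.00611), and the part of this in the Cyp2d40 change was not tested. In DKO against MttpLKO, both called genes of the lists that rose were male-predominant P450s of family 4. Cyp4a12a rose from 211 ± 30.2 to 385 ± 8.36 CPM (log2 0.87 ± 0.12, edgeR adjusted p = 0.00845). Cyp4a12b rose from 79.2 ± 6.21 to 183 ± 10.0 CPM (log2 1.21 ± 0.19, edgeR adjusted p = 0.0235). In controls Cyp4a12a stood at 312 ± 7.72 CPM and Cyp4a12b at 128 ± 44 CPM, and for both every MttpLKO pool lay below every control. Neither was called in MttpLKO against control or in DKO against control. Of the 4 tested male-predominant P450s these 2 passed in DKO against MttpLKO. None of the 5 tested female-predominant P450s passed, among them Cyp2a4, at 32.2 ± 17.8 CPM in controls and 150 ± 42.7 in DKO (log2 2.22 ± 0.49, edgeR adjusted p = 0.109).

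Slco1a4, an organic anion uptake transporter listed among the targets of Nr1i2 and Nr1i3, stood at 34.0, 64.8 and 59.97 CPM in controls, 64.8, 74.3 and 29.8 in MttpLKO and 12.9, 12.5 and 6.00 in DKO. It fell in DKO against MttpLKO (log2 -2.43 ± 0.38, edgeR adjusted p = 0.0226) and against control (log2 -2.34 ± 0.38, edgeR adjusted p = 0.0331). Of the 17 tested targets of these receptors, members among them, it was the 1 called, as it was of 14 drug transporters; 12 of the 17 were above 0 in MttpLKO against control (median 0.12), 14 were below 0 in DKO against MttpLKO (median -0.27) and 10 were below 0 in DKO against control (median -0.13). Of all tested genes 52.3% were above 0 in the first comparison and 53.1% and 50.4% below 0 in the others. In the 5 Mb around Slco1a4 on chromosome 6 other genes were called too, 3 in MttpLKO against control and 1 in DKO against MttpLKO, and the part of this in its change was not tested.

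These further lists had no call: 11 electron donors and haem genes, in which Por, the reductase that feeds the P450s, stood at 858 ± 134 CPM in controls and 1256 ± 309 in MttpLKO (edgeR adjusted p = 0.701); 13 glucuronidation genes; 13 of sulfation, methylation and acetylation; 14 receptor partners and chaperones; 6 Ahr targets, Cyp1a2 among them; and 19 glutathione transferases, of which 8, 15 and 12 were below 0 in the 3 comparisons. Ugp2, which makes UDP-glucose for glucuronidation, stood at 255 ± 17.6 CPM in MttpLKO and 177 ± 16.0 in DKO (edgeR adjusted p = 0.111). Gstp1 and Gstp2 were listed at 0 in all 9 libraries; 62.3% and 72.6% of their 50-base words are shared with copies, so this is no measure of their level.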

How the data were processed

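Liver RNA was treated with DNase and oligo(dT)-selected, and each library held RNA pooled from 3 mice, per the labels' protocols. The deposited tables give whole-number read counts per gene, and beside them the authors' own CPM and RPKM, per the file headers (recomputed here, with differences of at most 5.1e-11 CPM and 4.7e-11 RPKM). The submitters' processing notes list the tools STAR 2.0.4b, featureCounts 1.4.5 and Subread without saying what each did. For the genome build, annotation, strand setting and treatment of reads that match several genes, nothing is given in the sources used here. Coordinates are those of the deposited tables. They overlap the RefSeq GRCm38 spans of all 41 members. Of the identifiers, 97.3% matched a symbol.

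Counts were tested with edgeR 4.0.16 (R 4.3.3) in 1 quasi-likelihood fit of 3 genotype means over 9 libraries, with TMM scaling, filterByExpr at a minimum count of 10 (14741 genes kept) and Benjamini-Hochberg adjustment over these. The biological coefficient of variation was 18.3%. The SE is the log2 fold change divided by the root of its F statistic. CPM values printed are on TMM-scaled library sizes. RPKM, used for levels between genes, is the deposited value. The fit was tested on simulated data. No 2 replicates agreed within sampling noise. Shared 50-base words were counted against GENCODE M21 transcripts, and promoters came from RefSeq GRCm38.p6.

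Alternatives were other scalings, filters and tests (DESeq2 1.42.0, limma-voom 3.58.1), a replicate block, fits of 6 libraries and leaving out each library. Values in every library are given for called members, the receptors and 7 usual readout genes, the 5 members of smallest p per comparison, and members without overlap at a log2 fold change of at least 1 in size and a mean CPM of at least 1. Of the pathway lists the called genes or the gene of smallest p was eligible to be named; values of Cyp2c67, Cyp2c40, Cyp2c69, Cyp3a25, Sult1a1, Sult1d1, Gstp1 and Gstp2 were added after they were seen. A called gene of the lists is not reported here. The members and lists were chosen with earlier results of these data known.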

Additional observations from a re-analysis of the deposited data

How the results depend on the processing

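Under 17 alternatives, 846 of 867 recomputed values for the named members kept their direction and their side of the threshold, 11 came past it, 10 no longer passed it and 0 reversed; values within 1 SE of 0 were not read for direction, and 34 of them changed sign. The number of members called in MttpLKO against control was 1, and 2 with no low-count filter (Nnmt and Tpmt) or with DESeq2 (Cyp2c68 and Tpmt). In DKO against MttpLKO it was 2, and 3 with no low-count filter (Cyp3a59 added), 3 with DESeq2 (Cyp2c29 added), 1 with the replicate block, 1 when only the 6 compared libraries were fitted, and 1 to 4 when a library was left out, with 4 without the third MttpLKO pool and 1 in the other 8. In DKO against control it was 0, and 1 with no low-count filter, 1 with the 6 compared libraries, 1 with DESeq2 and 0 to 1 when a library was left out, the 1 being Cyp3a59, without the first or the third MttpLKO pool. The cause of these differences was not tested. Libraries with the same number were not seen to deviate together (correlations from -0.244 to 0.0721). With 3 libraries per genotype this cannot decide whether the numbers pair samples. The replicate block gave an edgeR adjusted p of 0.115 for Cyp2c68 in DKO against MttpLKO. The other scalings moved the median of all genes by less than 0.1 on the log2 scale. Depth limits the genes near 1 CPM, such as Cyp2c69 with 9 to 70 reads per library.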

Other observations

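Cyp1a1, the P450 most inducible through Ahr, stood at 0.852 to 1.53 CPM in 8 libraries and at 14.5 CPM in the third DKO pool. It was singled out after its values were seen. In that pool Ahr was at 40.8 CPM and Cyp1a2 at 867 CPM, both inside the range of the other libraries. Each pool holds RNA of 3 mice, so it is not known how many of them had the high level.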
